A study of Mus musculus with 3 samples.

Results

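The Il10 cytokine cluster is a stretch of mouse chromosome 1 that holds the genes of 4 related cytokines, Il24, Il20, Il19 and Il10, followed by the kinase gene Mapkapk2. Open chromatin was mapped there by ATAC-seq, in which a transposase cuts accessible DNA and leaves sequencing adapters. Peaks of the 3 deposited lists that shared 1 bp or more were joined into regions, and a region belonged to the cluster when the nearest protein-coding gene span, at most 100 kb away, was one of these 5 genes. This gave 19 of 57457 regions, 9 of them nearest to Il10 and 10 nearest to Mapkapk2. Il19, Il20 and Il24 received 0 regions.

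The 3 fractions were CD4+ T cells from the lymph nodes that drain the colon. Naive CD4+ cells from the spleen of CBir1 transgenic mice, whose T cell receptor recognises a bacterial flagellin, were stained with CellTrace Violet, a dye that daughter cells share out when a cell divides, and given to 4 wild-type C57BL/6J recipients. All recipients drank 2% dextran sulfate sodium (DSS), which injures the colon epithelium, for 7 days from the day after transfer, then plain water, and all received FTY720, which keeps lymphocytes from leaving lymph nodes, 7, 10 and 13 days after DSS began at a dose of 1 mg/kg. On day 14 after DSS began, 3 fractions were sorted: CBir1 cells low in dye (CTVdim, here divided), CBir1 cells with high dye (CTVhi, here undivided) and endogenous CD4+ cells that were not CBir1 (polyclonal). Cells of 2 mice were pooled and pools were made in duplicate, per the labels, but each fraction has 1 peak list here. A fraction is therefore 1 library, and differences between fractions cannot be set against replicates and carry no p-value. No untreated library was analysed here. In sorted cells, fewer cells with an open site and less opening per cell cannot be told apart.

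The divided library held 47963 peaks, the undivided 41876 and the polyclonal 44426. Judged by lowest background, depth in divided cells was 1.50 times that of undivided and 1.40 times that of polyclonal cells. Judged by the median ratio of fragments at the summit, over regions called in all 3 libraries, it was 1.21 and 1.19 times. Of 8 T cell markers, 7 (among them Cd3e, Cd4 and Lck) had a peak within 1 kb of a gene end in every library, and the remaining one, Trac, is not in the protein-coding gene table.

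Interleukin-10 restrains inflammatory responses by acting on macrophages, dendritic cells and T cells, and mice that lack it develop colitis driven by gut bacteria. Several helper T cell subsets and regulatory T cells can make it once they have been activated, and its gene is known to be controlled by distal elements on both sides and within its introns. Interleukins 19, 20 and 24 are made mainly by myeloid and epithelial cells and signal to epithelia. MK2, the product of Mapkapk2, is a kinase activated by p38 that acts on the stability of cytokine messenger RNAs and is made in most cell types.

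The promoter table of RefSeq (GRCm38.p6, the assembly of mm10) matched 3 of the 5 members, Mapkapk2, Il20 and Il19. The 250 bases before each of these gene starts are shown because the Mapkapk2 start was open in every fraction, whereas the Il20 and Il19 starts lay under no peak. All 3 genes are read from the minus strand, and the Il19 start used by the table lies inside the annotated span of that gene. The sequences run 5′ to 3′ toward the start, and capitals mark matches, on either strand, to one of 7 motifs: AP-1 (TGANTCA), STAT (TTCNNNGAA), NFAT (TGGAAA), Runx (TGTGGT), MAF (TGCTGA), the E-box (CANNTG) and the AHR core (GCGTG).
Mapkapk2, chr1:131097844-131098093: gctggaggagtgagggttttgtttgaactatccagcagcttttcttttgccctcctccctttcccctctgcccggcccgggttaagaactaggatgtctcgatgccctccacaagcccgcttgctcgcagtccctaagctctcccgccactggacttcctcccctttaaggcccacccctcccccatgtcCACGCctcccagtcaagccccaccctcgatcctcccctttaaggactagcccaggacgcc
Il20, chr1:130911297-130911546: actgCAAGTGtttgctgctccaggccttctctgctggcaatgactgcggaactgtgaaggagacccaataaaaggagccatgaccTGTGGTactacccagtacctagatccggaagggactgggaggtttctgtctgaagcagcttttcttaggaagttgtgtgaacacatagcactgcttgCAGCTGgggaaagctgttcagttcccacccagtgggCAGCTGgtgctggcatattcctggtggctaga
Il19, chr1:130940116-130940365: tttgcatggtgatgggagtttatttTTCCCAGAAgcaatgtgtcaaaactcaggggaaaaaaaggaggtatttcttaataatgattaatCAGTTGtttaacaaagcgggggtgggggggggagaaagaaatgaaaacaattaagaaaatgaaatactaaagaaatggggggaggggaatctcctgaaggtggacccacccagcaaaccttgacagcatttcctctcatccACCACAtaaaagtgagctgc

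The Mapkapk2 window held 1 AHR core, a motif found in 28.2% of the 32851 windows of this length in the table. Il20 had 3 E-boxes (present in 66.2% of windows) and 1 Runx match (14.0%), and Il19 had 1 STAT match (7.02%), 1 Runx match and 1 E-box. None of the 3 windows held the AP-1 (6.75% of windows), NFAT (18.6%) or MAF (16.1%) letters. No 2 matches overlapped. G and C made up 60.4% of the Mapkapk2 window, 52.8% of the Il20 window and 42% of the Il19 window, against a median of 52.4% over all windows. The dinucleotide CG occurred 9 times at Mapkapk2, 2 times at Il20 and 1 time at Il19, against a median of 6. A peak overlapped the window with its next 50 bases in 38.9% of promoters in the divided library, 37.7% in the undivided and 38.0% in the polyclonal library.

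Around Il10 the divided cells had peaks that undivided cells of the same transferred population lacked. All 9 Il10 regions were called in divided cells, 6 in polyclonal cells and 2 in undivided cells, where over all 57457 regions the shares called were 82.2% in divided, 75.4% in polyclonal and 71.1% in undivided cells. Thus 7 Il10 regions were called in divided and not in undivided cells, a state found in 21.4% of all regions, and 0 in undivided and not in divided cells (10.3% of all regions). Of these 7, 4 were also called in polyclonal cells (a pattern of 7.07% of all regions) and 3 in divided cells alone (14.3%). Among the 1315 genes with at least 9 regions, Il10 and 6 others had as small a share of their regions called in undivided cells, 22.2% or less. The excess of 7 regions in divided over undivided cells was reached by 69 of 15056 genes with a region, Il10 included. Kept to peaks with a −log10 q of at least 10, Il10 had 6 regions in divided, 2 in undivided and 3 in polyclonal lists. At that limit 4 Il10 regions were called in divided and not in undivided cells, a state found in 16.4% of the 35525 regions kept. The counts of 9, 2 and 6 were the same when only peaks that the shallowest library could have called at its depth were kept.

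**Figure D1:**
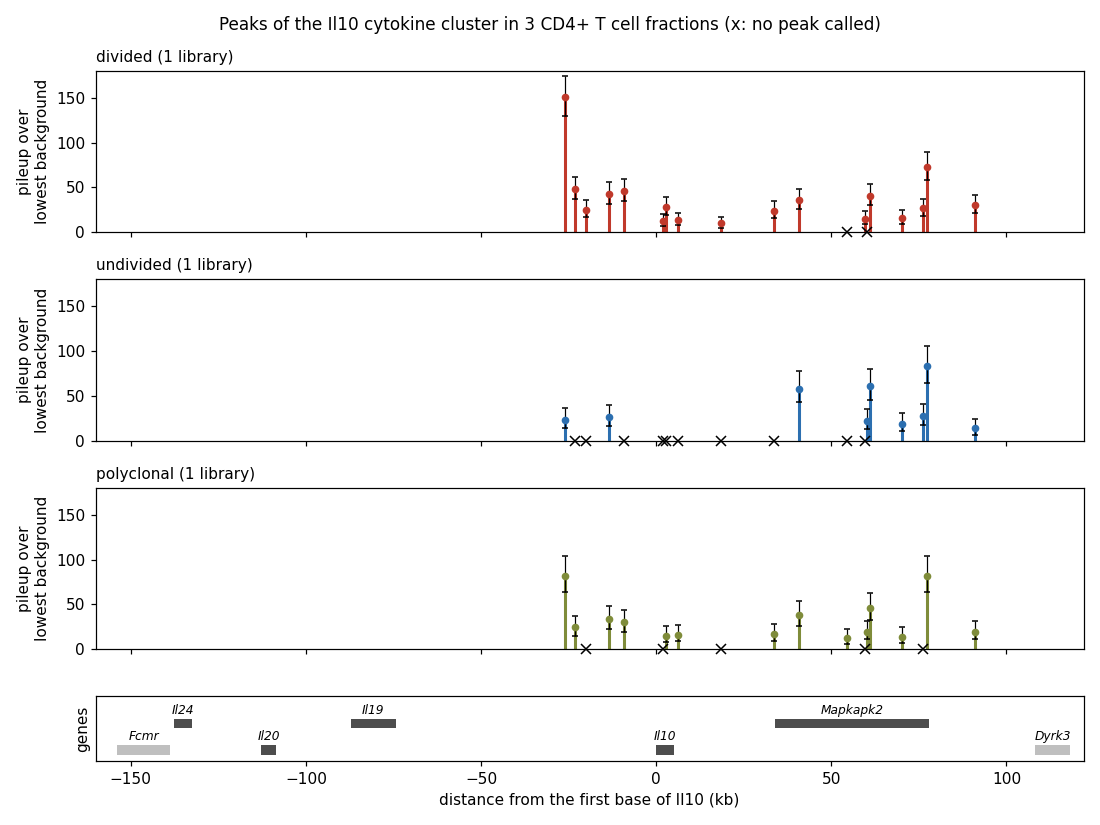
Summit pileup over the lowest background of the library (y axis, no unit) at each region of the cluster, against the distance of the region's middle from the first base of Il10 in kb (x axis), 1 panel per fraction with 1 library each. Coloured stems with points are the values, black bars are 95% exact Poisson intervals that cover counting error only, crosses mark regions with no called peak, and grey bars show gene spans (members dark, neighbours light). The tallest point is the region at −25.9 kb in divided cells (151), and the stretch that holds Il24, Il20 and Il19 is empty in every panel.

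The regions lay on both sides of Il10 and inside it. Il10 spans chr1:131019845-131024970 and is read toward higher coordinates, so lower coordinates are upstream. With positions given for the middle of each region relative to the first base of the gene, 5 regions lay upstream, at −25.9, −23.3, −20.0, −13.6 and −9.22 kb, 2 lay inside the gene at 1.87 and 2.93 kb, and 2 lay downstream at 6.22 and 18.6 kb. Exons and introns could not be told apart with the gene table used. No peak of any of the 3 lists covered the first base of Il10. The nearest regions to it were the one at −9.22 kb and the one at 1.87 kb.

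The region at −25.9 kb (chr1:130993543-130994267, 725 bp) was the strongest of the cluster in divided cells. Its summit was covered by 182 fragments in divided cells (95% exact Poisson interval 157 to 210), 71 in polyclonal cells (55.5 to 89.6) and 19 in undivided cells (11.4 to 29.7). The intervals, which like all intervals here cover counting error only, did not overlap, and the order was divided, polyclonal, undivided. Divided by the lowest background of each library, a proxy for depth, the values were 151, 82.0 and 23.5. The divided signal was 6.40 times the undivided (95% exact interval 3.98 to 10.9) and 1.84 times the polyclonal signal (1.39 to 2.45), and the undivided signal was 0.287 times the polyclonal (0.163 to 0.481). Of the 34958 regions called in both divided and undivided cells, 13, this one included, had a divided to undivided ratio at least as high. Among all regions called in the same library, a pileup at least as high was found in 3.85% of divided, 22.4% of polyclonal and 65.9% of undivided regions. Summits of the 3 libraries lay within 109 bp of each other.

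A second region open in every fraction, at −13.6 kb (chr1:131005972-131006531), differed less between the libraries. Its summit pileup was 51 in divided, 29 in polyclonal and 21 in undivided cells, or 42.2, 33.5 and 26.0 over the lowest background. The divided to undivided ratio was 1.62 (0.959 to 2.84) and the divided to polyclonal ratio 1.26 (0.783 to 2.06), and both intervals include equality. With pileups scaled by the median ratio in shared regions, the other depth proxy used here, the divided to undivided ratio was 2.01 (1.19 to 3.52), an interval above equality. Set against each other within a library, which needs no depth correction, the −25.9 kb region had 3.57 times the pileup of the −13.6 kb region in divided cells (2.60 to 4.97), 2.45 times in polyclonal cells (1.57 to 3.91) and 0.905 times in undivided cells (0.460 to 1.77). The undivided interval lies below that of divided cells and overlaps that of polyclonal cells. In undivided cells the pileups were 19 and 21, and the interval includes equality but is wide. The −25.9 kb region was singled out as the strongest in divided cells, so its being the higher there follows from that choice.

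Of the regions that undivided cells lacked, 4 were shared by divided and polyclonal cells. The region at −9.22 kb (chr1:131010302-131010944) reached 55 fragments in divided against 26 in polyclonal cells, a depth-scaled ratio of 1.52 (0.934 to 2.52). At −23.3 kb (chr1:130996437-130996686) the pileup was 58 and 21 and the ratio 1.98 (1.18 to 3.43). At 2.93 kb, inside the gene (chr1:131022292-131023250), it was 34 and 13 and the ratio 1.87 (0.964 to 3.87). Downstream at 6.22 kb (chr1:131025891-131026232), 921 bp past the last base, it was 16 and 14, a ratio of 0.819 (0.374 to 1.81), the only one of the 6 regions called in both libraries that was lower in divided cells. Of those 6 ratios, the ones at −25.9 and −23.3 kb had intervals above equality. With scaling by shared regions 4 of 6 did, the ones at −9.22 kb (1.78, 1.10 to 2.95) and 2.93 kb (2.20, 1.13 to 4.54) being added. The authors' fold enrichment, which divides by the background around each summit, gave another order at some sites. Divided and polyclonal values were 3.78 and 3.64 at −23.3 kb, 9.06 and 9.21 at −9.22 kb and 6.29 and 4.66 at 2.93 kb. At 6.22 kb they were 3.34 and 5.33, and at −13.6 kb 7.95 and 9.45.

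The remaining 3 Il10 regions were called in divided cells alone and were among the weaker ones. They lay at −20.0 kb (chr1:130999731-130999911, pileup 30, −log10 q 13.4), at 1.87 kb inside the gene (chr1:131021637-131021802, pileup 15, −log10 q 2.68) and at 18.6 kb (chr1:131038208-131038592, pileup 12, −log10 q 6.97). Absence from a list is not absence of signal. If the background around the uncalled sites was no higher than the highest at the called Il10 regions of the same library, a pileup of 6 in undivided cells and of 14 in polyclonal cells would have reached the weakest p-value of its list. By that measure the polyclonal list could have missed a site as weak as those at 1.87 and 18.6 kb, whose divided pileups of 15 and 12 correspond to fewer fragments at the polyclonal depth. In undivided cells the 7 uncalled sites had divided pileups of 12 to 58.

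The background that the peak caller took from the surroundings of each summit also differed. At the −25.9 kb region it was 11.2 times the lowest background of the library in divided cells, 5.49 times in polyclonal cells and 1.40 times in undivided cells. Over the 9 Il10 regions of divided cells it ranged from 1 to 12.1 times with a median of 3.78, against a median of 2.59 over all divided regions, and at the other Il10 region of undivided cells, at −13.6 kb, it was 1 times. The authors' fold enrichment divides by this local background, and at the −25.9 kb region it was 12.6 in divided, 12.5 in polyclonal and 9.40 in undivided cells. By that measure the log2 difference of divided from undivided cells was 0.42 instead of 2.68, and that of divided from polyclonal cells 0.0028 instead of 0.88.

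**Figure D2:**
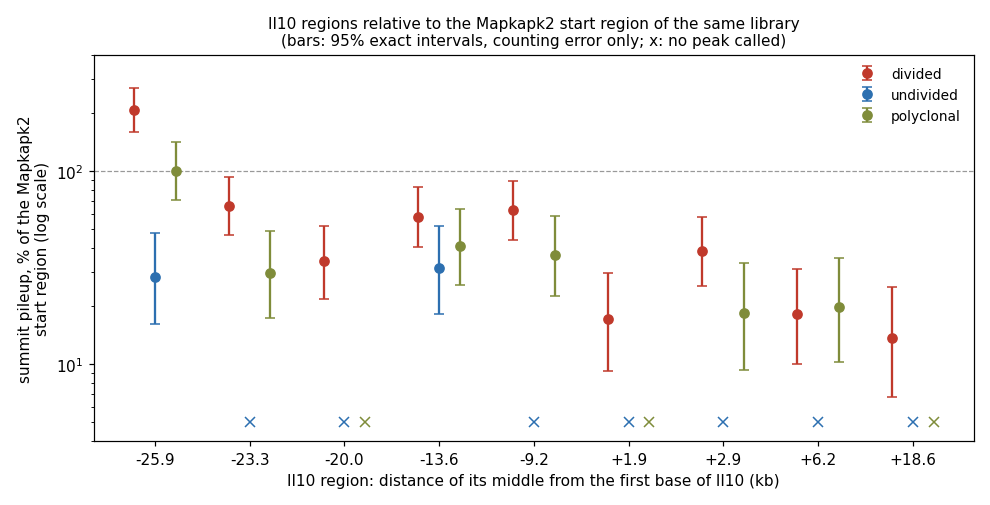
Summit pileup of each Il10 region as a percent of the pileup at the Mapkapk2 start region of the same library (y axis, log scale), by distance of the region's middle from the first base of Il10 in kb (x axis), with 1 library per fraction. Bars are 95% exact intervals (counting error only), crosses mark regions with no called peak, and the dashed line is 100%. The −25.9 kb region stands at 207% in divided, 100% in polyclonal and 28.4% in undivided cells, and 7 of 9 regions have a cross for undivided cells.

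Mapkapk2, which spans chr1:131053700-131097871 downstream of Il10, was open in all 3 fractions. Of its 10 regions 8 were called in divided, 7 in undivided and 8 in polyclonal T cells, and 5 were called in all 3, a state found in 56.9% of all regions. The region over its start (chr1:131096228-131098093, 1866 bp) holds the promoter sequence printed above and was its strongest in every library. Its pileup was 88 in divided (70.6 to 108), 67 in undivided (51.9 to 85.1) and 71 in polyclonal T cells (55.5 to 89.6). Over the lowest background these are 72.8, 83.0 and 82.0, a divided to undivided ratio of 0.878 (0.632 to 1.23) and an undivided to polyclonal ratio of 1.01 (0.713 to 1.43). The summits lay 31, 32 and 36 bases downstream of the start used for the printed promoter in the divided, undivided and polyclonal libraries. With 0.888 for divided to polyclonal (0.642 to 1.23), the interval of each of these ratios includes equality.

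Because it lies in the same stretch of the chromosome, the Mapkapk2 start gives a depth-free yardstick for Il10. The −25.9 kb region reached 207% of its pileup in divided cells (95% exact interval 159 to 270), 100% in polyclonal cells (70.9 to 141) and 28.4% in undivided cells (16.1 to 47.8), and these intervals do not overlap. At −13.6 kb the shares were 58.0% (40.2 to 82.7), 40.8% (25.6 to 63.7) and 31.3% (18.2 to 51.8), and all of these intervals overlap. The −9.22 kb region stood at 62.5% in divided (43.8 to 88.5) and 36.6% in polyclonal cells (22.4 to 58.1).

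Inside Mapkapk2 the regions at 37.3 and 17.0 kb past its start were next in strength. At 37.3 kb (chr1:131060117-131060891) the pileup was 43 in divided, 47 in undivided and 33 in polyclonal T cells, with a divided to undivided ratio of 0.611 (0.395 to 0.945), or 0.759 (0.490 to 1.17) with scaling by shared regions, which includes equality. At 17.0 kb (chr1:131080421-131081243) it was 49, 49 and 40, with a ratio of 0.668 (0.441 to 1.01). These ratios are to be read against the median of all regions called in both libraries, which was −0.31 on the log2 scale with this depth proxy, 0.0050 with pileups scaled by shared regions and 0.28 with unscaled pileups. A weaker region at 7.96 kb (chr1:131089586-131090190) had pileups of 19, 15 and 12.

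The Mapkapk2 regions missing from at least one list had pileups of 11 to 32, and some were neighbours of others. A pileup of 18 in divided cells alone (chr1:131079117-131079595) lay 84 bp from a region called in undivided and polyclonal cells only (chr1:131079680-131080172, pileups 18 and 17), which lay 248 bp from the 17.0 kb region. A region with pileups of 32 in divided and 22 in undivided cells (chr1:131095803-131096210), not called in polyclonal cells, was 17 bp from the start region. One region with a pileup of 11 was called in polyclonal cells only (chr1:131074224-131074429).

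At the outer edges of Mapkapk2, both regions were weaker or absent in undivided cells. The region next to its last base (chr1:131053216-131053675), 33.6 kb past the first base of Il10, reached 29 fragments in divided against 15 in polyclonal cells, with no peak in undivided cells, as at 4 of the Il10 regions. It was given to Mapkapk2 because that gene ends 25 bp away. The region 13.0 kb upstream of the Mapkapk2 start (chr1:131110392-131111283) had pileups of 36 in divided, 11 in undivided and 17 in polyclonal T cells. Its divided to undivided ratio was 2.19 (1.09 to 4.76) and its divided to polyclonal ratio 1.52 (0.830 to 2.88).

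**Figure D3:**
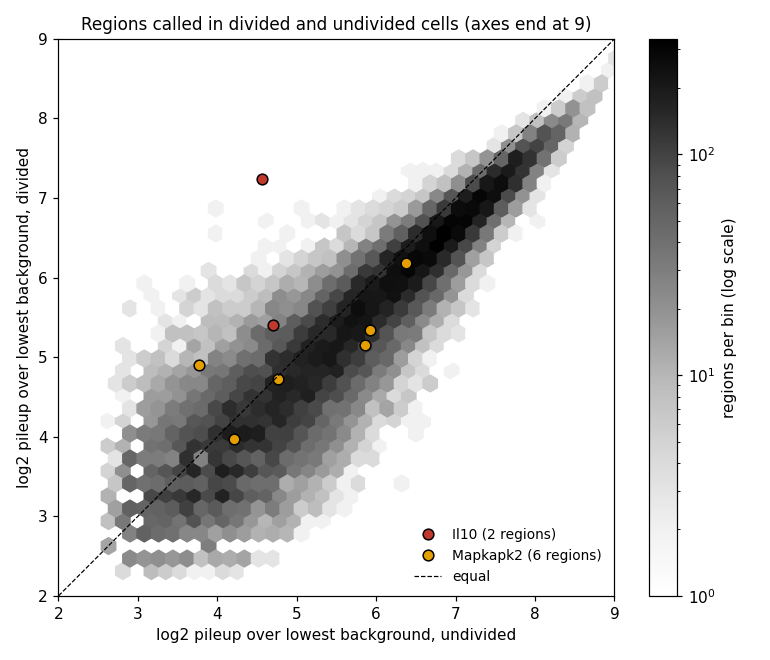
Log2 summit pileup over the lowest background in undivided (x axis) and divided cells (y axis) for the 34958 regions called in both libraries (1 library each), as grey bins shaded by the number of regions on a log scale, with the Il10 and Mapkapk2 regions as coloured points; the dashed line marks equal values and the axes end at 9. The Il10 region at −25.9 kb lies 2.68 above the line, the one at −13.6 kb 0.70 above it, and 5 of the 6 Mapkapk2 regions lie below it (2 of 6 with scaling by shared regions). All regions together also lie below the line, with a median of −0.31.

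Over the 8 member regions called in both CBir1 libraries the median log2 ratio of divided to undivided signal was −0.11, against −0.31 over all regions. The sign of this median turned to 0.20 with pileups scaled by shared regions, so no direction is given for the cluster as a whole. The 2 Il10 regions stood at 2.68 and 0.70, and the 6 of Mapkapk2 ranged from −0.71 to 1.13 with a median of −0.21. Against polyclonal cells, the 6 Il10 regions called in both ranged from −0.29 to 0.98 with a median of 0.74 and the 6 of Mapkapk2 from −0.19 to 0.60 with a median of 0.041, where the median of all 36741 regions was −0.22. Comparisons with the same library share its error.

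The genes Il24 (chr1:130882074-130887411), Il20 (chr1:130906985-130911296) and Il19 (chr1:130932656-130945457) lay in a gap with 0 peaks in each of the 3 lists. The gap ran for 115 kb, from a region inside Fcmr, which encodes a receptor for IgM and flanks the cluster (chr1:130878086-130878770), to the −25.9 kb region of Il10. The median gap between neighbouring regions was 9.66 kb, and 5.51% of 57436 gaps were at least as long. The genes on either side of the cluster were not empty: 7 neighbours, Pigr, Fcmr and Fcamr on one side and Dyrk3, Eif2d, Rassf5 and Ikbke on the other, held 33 regions, of which divided cells had 27 (81.8%), undivided 22 (66.7%) and polyclonal 24 (72.7%), close to the 82.2%, 71.1% and 75.4% of all regions.

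The 5 genes whose signal was split among the fractions most like that of Il10 were Usp44, Stk32c, Cyp4f39, Gpr15 and Zbtb7c. Il10 had 59.9% of its summed pileup over background in divided, 7.92% in undivided and 32.1% in polyclonal T cells. Likeness is the Euclidean distance between these 3 shares, over 3 libraries, among 2960 genes with at least 5 regions of which at least 25% were not called in every library. The distance was 0.0156 for Usp44 (59.4%, 9.19% and 31.4%), 0.0401 for Stk32c, 0.0447 for Cyp4f39, 0.0481 for Gpr15 and 0.0549 for Zbtb7c. Each had 5 regions, fewer than Il10. A region with no called peak counts as 0 in these sums, so the shares and the likeness carry the call counts with them. Gpr15, which encodes a receptor that guides T cells to the colon, had 5 regions called in divided, 1 in undivided and 3 in polyclonal T cells.

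Other cytokine loci, treated in the same way, differed in their counts. Ifng, the gene of the Th1 cytokine, had 20 regions, with 17 called in divided, 6 in undivided and 10 in polyclonal T cells. Over all regions the shares called were 82.2%, 71.1% and 75.4%, in the same order. Il21, a cytokine of follicular helper cells, had 14, 7 and 13 of 15 regions, and Il2 had 8, 3 and 5 of 8. A peak in divided and not in undivided cells was found at 11 Ifng, 8 Il21 and 5 Il2 regions. The reverse was found at 0, 1 and 0. Those states made up 21.4% and 10.3% of all regions. Il17a had 2, 2 and 1 of 2 regions, and Il17f had no region. The summed signal over background at Il17a was 109 in divided, 17.3 in undivided and 74.0 in polyclonal T cells. Those are shares of 54.5%, 8.64% and 36.9%, beside 59.9%, 7.92% and 32.1% at Il10. The Th2 cytokine genes Il4, Il13 and Il5 had 1, 0 and 1 of 1 region, 1, 0 and 0 of 1, and 2, 2 and 2 of 2. With 1 library per fraction, differences between these loci and Il10 could not be tested.

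**Figure D4:**
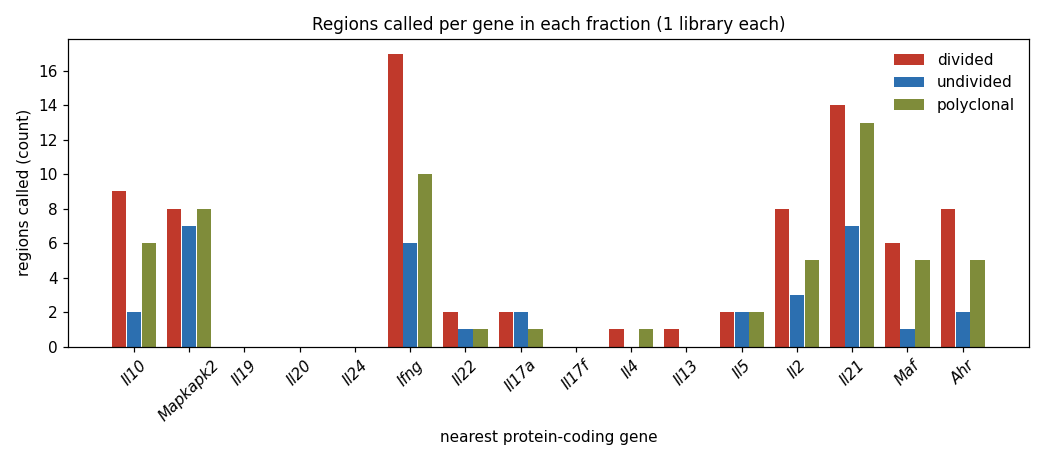
Number of regions called per gene (y axis, count) in the divided, undivided and polyclonal libraries (1 each), for the members of the cluster, other cytokine genes and the factor genes Maf and Ahr (x axis). Il10 has bars of 9, 2 and 6, Mapkapk2 of 8, 7 and 8, and Il19, Il20 and Il24 have none.

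Genes of proteins known to act at Il10 in T cells held 120 regions over 11 genes, all of which had at least 1 region in every library. Divided cells had 107 of them (89.2%), undivided 82 (68.3%) and polyclonal 91 (75.8%), beside 82.2%, 71.1% and 75.4% of all regions. In 31 regions (25.8%, beside 21.4% of all regions) a peak was called in divided and not in undivided cells. The reverse was found in 6 (5%, beside 10.3% of all regions). Of the 11 genes, 9 had more regions called in divided than in undivided cells and 0 had fewer. Among all 3474 genes with 5 to 37 regions, the range of this list, 57.6% had more and 21.5% had fewer. Maf, whose product binds and activates Il10, had 6 regions called in divided, 1 in undivided and 5 in polyclonal T cells. Ahr, which encodes the aryl hydrocarbon receptor, had 8, 2 and 5. Gata3 had 12, 8 and 9, Prdm1, the gene of Blimp-1, 10, 8 and 9, and Irf4 8, 8 and 8. The regions of this list that were called in both CBir1 libraries numbered 76 and had a median log2 ratio of −0.11, against −0.31 over all regions. The summed signal over background of the list was 5636 in each CBir1 library, so the higher call count came without a higher sum. By gene, the sum was lower in divided than in undivided cells at Prdm1 (490 and 713), Ets1 (1852 and 1990), Nfil3, Rbpj and Egr2. It was higher at Maf (339 and 150), Ahr (201 and 70.6), Batf, Irf4, Bhlhe40 and Gata3.

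Receptor and signalling genes of these cytokines held 85 regions in 9 of 10 genes. Divided cells had 66 of them (77.6%), undivided 68 (80%) and polyclonal 70 (82.4%), beside 82.2%, 71.1% and 75.4% of all regions. Il10ra, the ligand-binding chain of the interleukin-10 receptor, had 2, 4 and 3, and Il10rb, the chain it shares with related receptors, 7, 7 and 8. Jak1 had 21, 23 and 23 and Stat3, the main transcription factor downstream, 7, 6 and 7. Il20ra and Il20rb, which form the receptor of interleukins 19, 20 and 24, had 5, 7 and 7 and 7, 7 and 8, and Il22ra1, a partner chain of epithelial cells, had no region. Of the 8 genes around MK2, each had at least 1 region, and 28, 23 and 24 of their 35 regions were called in divided, undivided and polyclonal cells. Those are 80%, 65.7% and 68.6%, near the 82.2%, 71.1% and 75.4% of all regions. Mapk14, the gene of p38 alpha, had 6, 5 and 7, and Zfp36, the RNA-destabilising target of MK2, 3, 3 and 3.

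Interleukin-10 is also made by B cells, myeloid cells and regulatory T cells, so the markers of these cells are given here. Of 12 regions at B cell genes, 9 were called in divided, 4 in undivided and 9 in polyclonal T cells (75%, 33.3% and 75%). Their summed signal over background was 234, 187 and 233. The shares of all regions, beside which each list here can be set, were 82.2%, 71.1% and 75.4%. At 6 B cell regions (50%, beside 21.4% of all regions) a peak was called in divided and not in undivided cells. The reverse was found at 1 (8.33%, beside 10.3%). Of the B cell genes, Ms4a1 and Cd79b had no region, while Pax5 had 2, 0 and 2, Ebf1 4, 2 and 5, Blk 2, 1 and 1 and Cd79a 1, 1 and 1. Myeloid genes had 24, 19 and 23 of 31 regions (77.4%, 61.3% and 74.2%), with a summed signal of 521, 658 and 683. Csf1r and Adgre1 had no region, while Itgam had 9, 5 and 9, Fcgr1 9, 8 and 9, Spi1 4, 4 and 4, Cd14 1, 1 and 1 and Lyz2 1, 1 and 0. Regulatory T cell genes had 34, 30 and 40 of 46 (73.9%, 65.2% and 87.0%), with 1541, 1330 and 1553, and Foxp3 had 2, 1 and 2. Markers of CD8 T cells (Cd8a and Cd8b1) had 1, 5 and 7 of 8 regions (12.5%, 62.5% and 87.5%). Those of natural killer and innate lymphoid cells had 13, 16 and 16 of 18 (72.2%, 88.9% and 88.9%). The part of such cells in the Il10 result was not tested.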

How the data were processed

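Open chromatin was measured by ATAC-seq in 3 sorted fractions, with 1 deposited peak list and 1 summit list each. Tools listed in the submitters' processing notes are MACS2 2.1.0, Bowtie2 2.3.2, SAMtools, Picard, Trimmomatic 0.33, cutadapt 1.12 and bcl2fastq 2.17, with build mm10. The sources used here do not give read totals, any transposase shift, or how duplicate pools entered a list. The deposited peak lists hold a whole-number score, the fold enrichment as a linear ratio, the −log10 p-value and the −log10 q-value of each peak, and other values such as the summit offset. The deposited summit lists repeat the summits and −log10 q.

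The pileup of fragments at a summit was recovered from the authors' fold, taken as (pileup + 1)/(background + 1), and −log10 p under a Poisson model. A whole number within 0.001 was found for 99.9932% of peaks or more in each list. Recovery and merging were tested on simulated data. Signal is pileup divided by the lowest background of the library (1.21, 0.808 and 0.865 for divided, undivided and polyclonal). Peaks were merged at 1 bp and given to the nearest of 21900 protein-coding spans of a RefSeq table (GRCm38.p6), by the distance between edges. Intervals are 95% and exact (Poisson, or Clopper-Pearson for ratios). Fragments without molecular identifiers are not independent molecules. All Il10 and Mapkapk2 regions are described, and lists and motifs were set by hand. One gene of the marker lists is not reported here. The members and lists were chosen with earlier results of these data known. Python 3.11.15, numpy 2.4.6, pandas 2.3.3, scipy 1.17.1 and matplotlib 3.10.9 were used.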

Additional observations from a re-analysis of the deposited data

How the results depend on the processing

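Of 108 alternative values, 93 stayed within the tolerance of the value reported. They covered stricter peaks (−log10 q of at least 5 or 10), assignment within 20 kb, joining at 50% overlap of the shorter peak, calls limited to the depth of the shallowest library by lowest background or by shared regions, and other scalings of signal. The values for Il10 alone were added after seeing the data. The tolerance was wide, so a value within it could still change much. Within it fell the Il10 regions going from 9 to 6 at −log10 q 10. So did the Il10 net of divided minus undivided going from 7 to 5 at −log10 q 5. The cluster's median log2 ratio of divided to polyclonal signal also stayed within it, going from 0.40 to 0.030 with the authors' fold. With peaks limited to −log10 q 10 and above, the cluster held 12 regions, 8 of them called in polyclonal cells, with a net of −2 for undivided minus polyclonal. At that level Il10 had 3 regions in polyclonal cells and nets of 4 for divided minus undivided and −1 for undivided minus polyclonal. With the limit at 5 the Il10 net of divided minus polyclonal was 1. Within 20 kb, Il10 lost the regions at −25.9 and −23.3 kb and kept 7, all called in divided cells, 1 in undivided and 4 in polyclonal ones. The cluster's median log2 ratio of divided to undivided signal turned to 0.20 with scaling by shared regions and to 0.47 unscaled, and that of undivided to polyclonal from 0.099 to −0.0006 unscaled. At the −25.9 kb region the authors' fold gave 0.42 for divided over undivided, 0.0028 for divided over polyclonal and −0.41 for undivided over polyclonal, each being divided by local background, and unscaled pileup gave 1.36 for divided over polyclonal. Both depth-limited settings kept all 19 regions and every net count. No paired analysis was possible because each fraction has 1 library.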
